A study of Mus musculus with 4 samples.

Results

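The genes described here are the cyclins, E2F factors, inhibitors and pocket protein that set entry into the cell cycle, measured in single splenic B cells of a mouse germinal center (GC) response. The 10 members were taken as a named list and not by their values: *Ccnd2*, *Ccnd3*, *Ccne1*, *Ccne2*, *E2f1*, *E2f2*, *Cdkn1a*, *Cdkn1b*, *Cdkn2c* and *Rb1*. All 10 were found among the 32285 genes of both mRNA matrices. The study transferred MD4 B cells, specific for hen egg lysozyme (HEL) through a receptor transgene, into 6 WT recipients and immunized them with HEL coupled to sheep red blood cells. On day 8 the HEL-binding CD95+ splenic cells of each recipient were stained with a hashtag antibody of its own and sorted by the allelic marker CD45, and each sort gave 1 mRNA and 1 hashtag library. The purpose was to learn what becomes of GC B cells that lack DOCK8, an exchange factor acting on the actin cytoskeleton.

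Every recipient received a mixture of CD45.1+ and CD45.2+ MD4 cells from donors aged 8 to 12 weeks. The CD45.1+ cells were *Dock8* wt/wt without the BCL2 transgene in all 6 mice. The CD45.2+ cells carried the BCL2 transgene (BCL2.Tg), which prolongs survival and is driven in B cells, and were *Dock8* wt/wt in 3 mice and homozygous for the null allele *Dock8* cpm/cpm in the other 3. Each sort was 1 library, so that CD45 allele, BCL2.Tg and library cannot be told apart in any contrast between the sorts. The recipients were CD45.1+ as well, and whether host cells were among the CD45.1+ sort was not tested. The hashtags assigned 9692 cells to single mice, 3204 CD45.1+ and 6488 CD45.2+, at 339 to 947 CD45.1+ cells per mouse. The study reports more CD45.2+ single cells than were kept here, so the cells tested here are not its full set. The 3 mice labelled *Dock8* wt/wt held 1672 to 2607 CD45.2+ cells, but the 3 labelled *Dock8* cpm/cpm held 57, 44 and 101. These last numbers turned on the hashtag rule: they were 302, 145 and 468 with the hashtags normalized over each cell and 229, 160 and 481 under a 3-fold rule, while in those 3 mice the CD45.1+ numbers went from 496, 339 and 508 to 26, 16 and 57 and to 654, 545 and 957. The median cell had between 4235.5 and 7438 unique molecular identifiers (UMIs) per mouse and sort, and 6 cell barcodes were kept in both libraries. Levels are given in CPM (UMIs scaled to a common library size), the share of a gene in all UMIs summed over the cells of 1 mouse, and errors are SDs over mice.

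The labels were checked first. In CD45.2+ cells *Dock8* stood at 98.2, 99.1 and 83.5 CPM under the wt/wt label and at 105, 99.3 and 95.7 CPM under the cpm/cpm label. These counts come from transcript 3′ ends and do not read the mutation, so they check nothing. *Xist*, transcribed from the inactive X chromosome, was at 1203 to 1429 CPM in CD45.2+ cells labelled wt/wt and at 281 to 406 CPM in those labelled cpm/cpm, while the Y-linked *Ddx3y* was at 1.97 to 2.33 and at 60.0 to 67.5 CPM. The sexes so marked are the reverse of those in the study's supplementary note on its donors. Donor sex moves with the group label in the CD45.2+ cells, and the 2 cannot be told apart. *Xist* was lower but not absent under the cpm/cpm label. Whether cells or RNA of the other group were among those samples was not tested. Were the 2 group labels exchanged, the sign of every genotype and bystander difference given here would turn. The CD45.2+ levels by cluster and phase, and the contrasts of the sorts, all use mice labelled wt/wt. They would then rest on *Dock8* cpm/cpm CD45.2+ cells. Which reading holds was not settled.

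D-type cyclins, made from *Ccnd2* and *Ccnd3* in B cells, bind CDK4 and CDK6 in response to growth signals and begin to phosphorylate the retinoblastoma protein, the product of *Rb1*. That releases E2F factors such as E2F1 and E2F2, which switch on the E-type cyclins (*Ccne1*, *Ccne2*), and these drive CDK2 and the start of DNA replication. The CDK inhibitors restrain the kinases: *Cdkn1a* and *Cdkn1b* encode p21 and p27 of the Cip/Kip family, and *Cdkn2c* encodes p18 of the INK4 family, which binds CDK4 and CDK6. In the GC, B cells divide in the dark zone (DZ) and are selected in the light zone (LZ), and cyclin D3 is known for its part in DZ division.

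On GRCm38 with GENCODE M21 the D cyclin genes lie at chr6:127125162-127152193 (*Ccnd2*, minus strand) and chr17:47505051-47599691 (*Ccnd3*, plus), and the E cyclin genes at chr7:38097984-38107534 (*Ccne1*, minus) and chr4:11191351-11204779 (*Ccne2*, plus). *E2f1* lies at chr2:154559407-154569892 (minus) and *E2f2* at chr4:136172394-136196057 (plus). The inhibitor genes lie at chr17:29090976-29100727 (*Cdkn1a*, plus), chr6:134920401-134925513 (*Cdkn1b*, plus) and chr4:109660876-109667189 (*Cdkn2c*, minus). *Rb1*, at chr14:73183673-73325822 (minus), overlaps other annotated genes on its own strand, which makes its counts less certain.

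RefSeq promoter windows on GRCm38.p6, from 250 bases before to 50 after a transcript start, were given for 7 of the 10 members, and not for *Ccnd2*, *Ccne2* or *Rb1*. They were searched on both strands for 4 motifs. The E2F letters TTTCCCGC, TTTCGCGC, TTTGCCGC or TTTGGCGC occurred in 2.26% of all 32851 windows and in 1 of the 7 members, *E2f2*. The CHR letters TTTGAA occurred in 17.9% of all windows and in 1 member, again *E2f2*. The GC box GGGCGG occurred in 35.7% of all windows and in 7 of 7 members, and CCAAT in 37.4% and in 4 members. A member was counted if any of its windows held the letters, and some members had more than 1 window. The percentages are per window, so the 2 measures are unlike. *E2f2* and *Cdkn1a* had the GC box, and *Ccnd3* and *Cdkn2c* CCAAT, only in a further window. Below are the windows of the E cyclin with an entry, which was high in DZ cells called S, of *Ccnd3*, which was high through S and G2M, and of *Cdkn1b*, which had the opposite pattern, with GC boxes and CCAAT in capitals, and the 30 bases of *E2f2* that hold its E2F letters in capitals. All are printed 5′ to 3′ on the gene's strand, the first 3 up to the annotated gene start. A match is a description of these letters.
Ccne1 chr7:38107535-38107740 (- strand): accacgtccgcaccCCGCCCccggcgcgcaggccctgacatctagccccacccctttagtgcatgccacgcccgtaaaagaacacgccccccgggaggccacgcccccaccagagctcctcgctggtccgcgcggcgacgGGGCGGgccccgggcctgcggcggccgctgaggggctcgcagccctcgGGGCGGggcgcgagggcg
Ccnd3 chr17:47504801-47505050 (+ strand): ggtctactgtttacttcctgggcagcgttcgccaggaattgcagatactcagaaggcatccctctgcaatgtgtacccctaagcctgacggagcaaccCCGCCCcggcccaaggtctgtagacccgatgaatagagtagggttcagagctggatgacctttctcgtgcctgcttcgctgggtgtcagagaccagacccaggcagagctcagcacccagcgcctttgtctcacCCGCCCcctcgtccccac
Cdkn1b chr6:134920151-134920400 (+ strand): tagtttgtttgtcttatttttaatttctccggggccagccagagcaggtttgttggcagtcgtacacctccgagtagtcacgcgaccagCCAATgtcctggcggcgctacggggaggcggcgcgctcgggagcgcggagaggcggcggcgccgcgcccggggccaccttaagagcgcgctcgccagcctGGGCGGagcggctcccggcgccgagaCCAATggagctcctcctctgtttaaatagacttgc
E2f2 chr4:136172292-136172321 (+ strand): tccgaatttggcggcatatagTTTGGCGCt

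Clusters were named after the marker list of the study that shared most genes with them, and the lists had been chosen by the study on these libraries, so each name is read as "like". DZ-like cells had 3 clusters (DZ1, DZ2, DZ3), LZ-like cells had LZ1, LZ2 and LZtoPrePC_Memory, and early or activated cells had EarlyGC1, EarlyGC2, Activated_Memory and Activated2. The name LZ2 was a close call, with 14 genes shared with the LZ2 list and 12 with the LZ4 list. At resolution 1.2 a cluster of 1214 cells was named LZ4 and one of 332 cells LZ2. With the hashtags normalized over each cell there was an LZ4 cluster and none named LZ2. Plasma cell-like clusters were PC1, PC2 and CyclingPC_PB, and 1 cluster was T cell-like. The members were left out of the genes used for clustering, but the cells were the same, so the levels by cluster are a description without a test. No cluster had more markers of another class than of its own among its 10 leading genes. The cells of LZtoPrePC_Memory were poor in RNA, with a median of 1765 UMIs, 0.270 of the median of their library. Their median mitochondrial share was 5.76%, against 1.10 to 2.67% in the other clusters. Under a stricter cell filter (5% mitochondrial, 500 genes) no cluster took this name. Whether its high levels belong to a state or to cells of low quality was not tested. The median cell of CyclingPC_PB, over both sorts, had 15434 UMIs. Levels by cluster are given in CPM only, so their order need not be that of molecules per cell.

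The D cyclins differed in their order over the clusters in the CD45.2+ cells of the 3 wt/wt mice. *Ccnd2* was at 227, 252 and 359 CPM in LZ1 and at 28.9, 36.3 and 41.0 CPM in LZ2, so that the 2 LZ-like clusters did not overlap. Its mean was lower still in the DZ clusters, at 12.8 to 17.8 CPM, whereas it was at 201 ± 52.7 CPM in CyclingPC_PB and 144 ± 39.1 CPM in EarlyGC2 (SD, n = 3). The T cell-like cluster had the highest mean of *Ccnd2*, 356 ± 137 CPM, which overlapped LZ1 within its SD. *Ccnd3* was highest in DZ3 (276 ± 23.9 CPM), DZ1 (274 ± 14.9 CPM) and DZ2 (238 ± 16.1 CPM), followed by the T cell-like cluster at 183 ± 68.8 CPM and LZ2 at 181 ± 71.3 CPM, and DZ3 and DZ1 differed by less than their SDs. The plasma cell-like clusters held 35.4 to 42.6 CPM of *Ccnd3*, also CyclingPC_PB, where *Ccnd2* was high.

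The E cyclins and *E2f1* were high in DZ-like cells. *Ccne2* was at 130 ± 8.52 CPM in DZ1 and 124 ± 22.7 CPM in DZ2, at 59.4 ± 10.5 CPM in DZ3 and 45 ± 9.53 CPM in CyclingPC_PB, and between 2.93 and 9.41 CPM in every other cluster. *Ccne1* was at 55.5 ± 7.12 CPM in DZ2 and 54.3 ± 3.18 CPM in DZ1, and lowest in LZ1, at 5.37 ± 5.62 CPM. *E2f1* separated the DZ clusters, with 68.7 ± 4 CPM in DZ1, 38.8 ± 5.39 CPM in DZ2 and 22.2 ± 10.6 CPM in DZ3. *E2f2* had the smallest ratio of highest to lowest mean of the 10, from 25.9 ± 1.98 CPM in PC2 to 101 ± 17.8 CPM in LZtoPrePC_Memory, and in the DZ clusters it lay between 75.2 and 98.8 CPM.

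Among the inhibitors, *Cdkn1b* and *Cdkn2c* had opposite orders. *Cdkn1b* was at 21.5 to 27.2 CPM in the DZ clusters, at 111 ± 8.97 CPM in EarlyGC1 and at 118 ± 38.7 CPM in the low-RNA LZtoPrePC_Memory, and its means in LZ1 and LZ2 were 44.9 ± 20.1 and 54.1 ± 13.4 CPM. *Cdkn2c* was highest in DZ2 (74 ± 2.98 CPM) and CyclingPC_PB (59.5 ± 16.7 CPM), lower in DZ3 and DZ1 (41.1 ± 3.95 and 28.4 ± 3.21 CPM) and at 1.47 to 21 CPM elsewhere. *Cdkn1a* was near the limit of detection. It was at 9.81, 25.1 and 50 CPM in EarlyGC2, from 6, 19 and 23 UMIs, and at or under 6.77 CPM in every other cluster. *Rb1* was at 103 ± 51 CPM in LZtoPrePC_Memory, at 45.5 to 55.3 CPM in PC1, Activated_Memory, EarlyGC1, EarlyGC2 and CyclingPC_PB, and lowest in DZ3 at 10.9 ± 2.55 CPM.

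**Figure D1:**
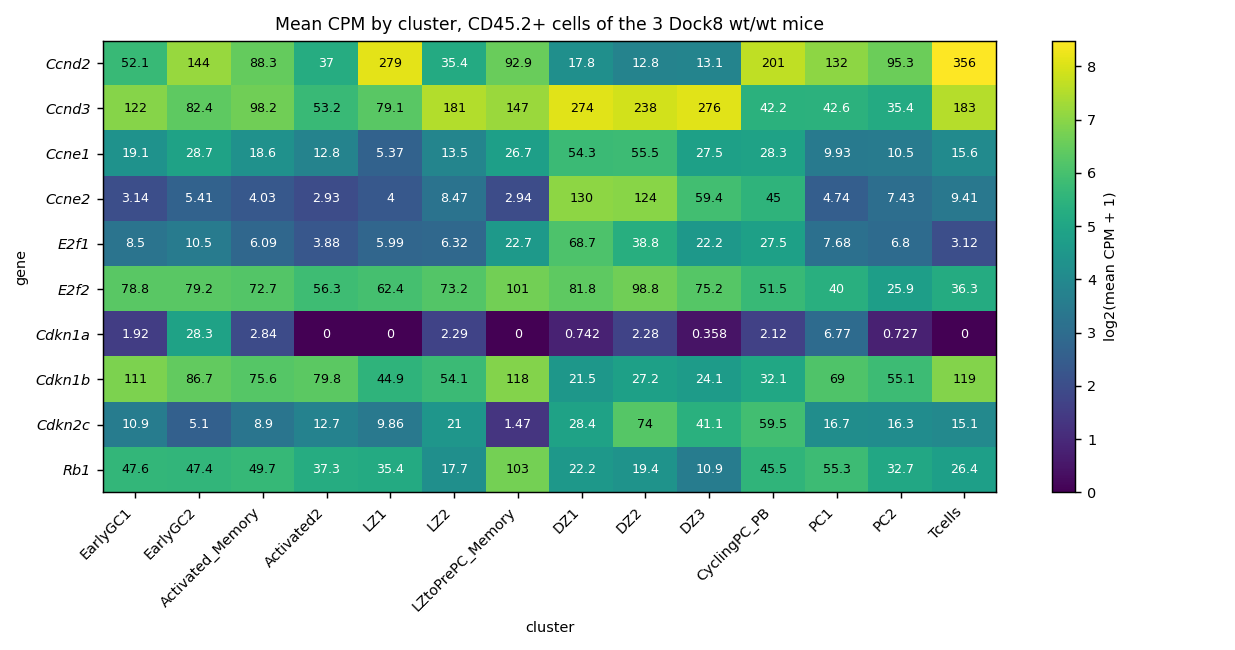
Mean CPM of the 10 genes (rows) in each cluster (columns) of CD45.2+ cells from the 3 mice labelled Dock8 wt/wt, with the colour on a log2(mean CPM + 1) scale and the mean printed in each cell. *Ccne2*, *Ccne1* and *E2f1* stand out in DZ1 and DZ2, *Ccnd2* in LZ1 at 279 and *Cdkn1b* in EarlyGC1 at 111, while *Ccnd3* fills all 3 DZ clusters.

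The CD45.1+ cells of all 6 mice gave a like picture where clusters had cells. *Ccnd2* was at 215 ± 171 CPM in LZ1 (4 mice with at least 10 cells) and 15.1 ± 9.24 CPM in LZ2 (n = 6), and *Cdkn1b* at 148 ± 36.9 CPM in EarlyGC1 (n = 5) and 12.9 ± 9.99 CPM in DZ1 (n = 6). *Ccne2* was at 97.6 ± 16.5 CPM in DZ2 and 74.7 ± 20.5 CPM in DZ1 and at 0 in EarlyGC1, EarlyGC2, LZ1, Activated2 and the T cell-like cluster. *Ccne1* was highest in CyclingPC_PB in these cells, at 62.9 ± 17.1 CPM (n = 5), against 52 ± 12.4 CPM in DZ2 (n = 6), a gap smaller than either SD.

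Over 13 clusters of the CD45.2+ cells (T cell-like cells left out), the genes with the most similar pattern were ranked among 5264 genes by Pearson's r of log2(CPM + 10). The clusters share 1 library, so r is a description. For *Ccne2* they were *Chaf1a* (0.98) and *Usp1* (0.97), for *E2f1* *Rpa2* and *Clspn* (both 0.94), and for *Ccne1* *Arl6ip4* (0.89) and *Wdhd1* (0.88). For the D cyclins they were *Ly6a* (0.88) and *Cd44* (0.86) with *Ccnd2*, and *Scaf11* (0.98) and *Fyttd1* (0.97) with *Ccnd3*. For *Cdkn1b* they were *Txnip* (0.96) and *H2-T23* (0.95), for *Cdkn2c* *Txnl1* (0.94) and *Psat1* (0.93), and for *Rb1* *B4galt1* (0.96) and *Aff1* (0.93). *E2f2* was closest to *Zfp639* (0.95) and *Brd7* (0.94), and *Cdkn1a*, with few counts, to *Tpd52l2* and *Ccng1* (both 0.76).

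The members were next compared between phases of the cycle. Each non-plasma cell was called G1, S or G2M from 41 S and 53 G2M genes after thinning to 2000 UMIs, with no member among these genes. *Ccne2* and *E2f8* had been on the S list and *Cks1b* on the G2M list, and were taken out before the call. Their differences between phases are thus those of genes already known to mark a phase. The call is a cut on a score, and 606 of 2352 CD45.1+ and 1359 of 4661 CD45.2+ cells lay within 0.05 of it. S was compared with G1, and G2M with G1, over summed counts per mouse in edgeR (quasi-likelihood), adjusting p by Benjamini-Hochberg over all genes. Phase was tied to cluster. Of the 1200 DZ-like CD45.2+ cells with a phase in the wt/wt mice, 18 were called G1, against 2191 of the early or activated and 662 of the LZ-like cells. The cells called S were 519 DZ-like, 330 early or activated and 163 LZ-like, and those called G2M 663, 82 and 33. G1 thus held mostly other cells and G2M mostly DZ-like cells, while S was a mix. The S levels over all non-plasma cells are those of this mix. Over the LZ-like and early or activated cells alone, S against G1 called 7 of 9118 genes in CD45.2+ cells and 95 of 5210 in CD45.1+ cells. G2M against G1 called 202 of 8746 in CD45.2+ cells. No member tested was among the called genes in any of the 3. Members not tested there included *Ccne1*, *Ccne2* and *E2f1* in CD45.1+ S and *Ccne2* in CD45.2+ G2M. In these cells *Ccnd2* and *Cdkn2c* in S, and *Ccnd3*, *Ccne1* and *Cdkn1b* in G2M, also lay on the other side of 0 in CD45.2+ cells than in the fit over all non-plasma cells described next.

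In all non-plasma CD45.2+ cells of the wt/wt mice, 52.1% of 9681 genes differed between S and G1, and 9 of the 10 members did, while the mice did not overlap in 56.7% of all genes. *Ccne2* was at 3.8, 5.18 and 3.43 CPM in G1 and 111, 133 and 138 CPM in S, a log2 difference of 4.83 ± 0.14 (SE, adjusted p = 4.14e-14). *E2f1* was at 6.8, 6.66 and 6.41 CPM in G1 and 49.9, 52.3 and 49 CPM in S (log2 difference 2.85 ± 0.13, adjusted p = 7.47e-12). *Ccne1* was at 17.9, 16.7 and 15.8 CPM in G1 and 55.3, 58.5 and 55.4 CPM in S (1.67 ± 0.11 on the log2 scale, adjusted p = 1.04e-09). The E cyclins and *E2f1* were thus higher in S in all 3 mice with no overlap. *Ccnd3* was higher in S as well, at 224 ± 12.6 against 113 ± 8.35 CPM (adjusted p = 2.39e-07), and *Cdkn2c* at 31.5 ± 7.7 against 11.5 ± 3.4 CPM (adjusted p = 2.56e-05). *E2f2* stood at 82 ± 2.31 against 73.5 ± 6.87 CPM and did not pass the test (adjusted p = 0.492).

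Lower in S than in G1 were *Ccnd2*, *Cdkn1b*, *Rb1* and *Cdkn1a*. *Cdkn1b* was at 89.9, 85.8 and 66.1 CPM in G1 and 41.3, 41.1 and 30.9 CPM in S, a log2 difference of -1.17 ± 0.12 (adjusted p = 4.04e-07). *Ccnd2* was at 73, 70.2 and 128 CPM in G1 and 40.4, 38 and 63.7 CPM in S (log2 difference -1.01 ± 0.23, adjusted p = 0.00125). In both the ranges did not overlap. *Rb1* was at 54, 41.9 and 39.4 CPM in G1 and 36.9, 29 and 24.1 CPM in S (adjusted p = 0.00144), and *Cdkn1a*, with 89 and 15 UMIs in all, at 5.4 ± 2.06 and 1.71 ± 1.22 CPM (adjusted p = 0.006). The call of *Cdkn1a* was lost with the hashtags normalized over each cell (adjusted p = 0.667) and with a 3-fold hashtag rule (0.415).

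The median cell had more UMIs in S (7532) and G2M (10125.5) than in G1 (5633), so a lower CPM need not be fewer molecules in a cell. Per 100 CD45.2+ cells, *Rb1* had 27.7 ± 5 UMIs in G1, 27.0 ± 6.62 in S and 18.1 ± 1.67 in G2M. *Cdkn1b* had 49.3 ± 6.01, 33.8 ± 4.70 and 39.5 ± 2.44 UMIs, and *E2f2* 73.7 ± 4.79 UMIs in S and 97.1 ± 5.82 in G2M per 100 cells, after 45.16 ± 4.48 in G1. On this scale, *Rb1* in S lay within its SD of G1, *Cdkn1b* remained lower in S, and *E2f2*, flat in CPM, was higher in each later phase. *Ccnd2* had 56.4 ± 24.2 UMIs per 100 cells in G1 and 43.1 ± 15.8 in S, which lay within the SDs of each other, and 18.2 ± 7.83 in G2M.

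Against G1, G2M cells differed in 60.5% of 9703 genes and in 9 of 10 members in CD45.2+ cells, with no overlap of mice in 63.3% of all genes. *Cdkn2c* was at 7.6, 13.5 and 13.5 CPM in G1 and 56.4, 67.1 and 58.6 CPM in G2M (log2 difference 2.30 ± 0.16, adjusted p = 2.65e-10). *Ccnd2* was at 73, 70.2 and 128 against 10.1, 15.6 and 23.8 CPM (-2.54 ± 0.26 on the log2 scale, adjusted p = 1.09e-07), and *Rb1* at 54, 41.9 and 39.4 against 15.9, 17.6 and 15.5 CPM (-1.59 ± 0.15, adjusted p = 2.5e-08). *Cdkn2c* was thus higher, and *Ccnd2* and *Rb1* lower, in G2M cells of every mouse. *Ccne2* (51.7 ± 5.04 CPM), *E2f1* (22.5 ± 5.87 CPM), *Ccne1* (28.5 ± 2.04 CPM) and *Ccnd3* (225 ± 11.9 CPM) were also higher in G2M than in G1, with log2 differences of 3.50, 1.65, 0.65 and 0.88. *E2f2* did not pass the test (adjusted p = 0.222). The call of *Ccne1* was lost with unthinned phases (adjusted p = 0.0517), and that of *Cdkn1a*, at 1.28 ± 0.834 CPM in G2M, with the hashtags normalized over each cell (0.0664) or the 3-fold rule (0.174).

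Markers listed for other cells moved with the phase too. The lists do not mark other cells alone: *Tyrobp*, of the myeloid list, was among the leading genes of the B cell cluster Activated_Memory. In CD45.2+ cells the 6 myeloid markers of a fixed list summed to 336 to 374 CPM in G1, 218 to 238 CPM in S and 227 to 269 CPM in G2M, the 4 erythroid genes to 10.6 to 26.2, 47.0 to 51.6 and 42.9 to 55.7 CPM, the 8 plasma cell markers to 1687 to 1968, 1888 to 2374 and 2232 to 2477 CPM, and the 8 T cell markers to 5.03 to 8.44, 6.78 to 7.63 and 8.10 to 49.6 CPM. In CD45.1+ cells each list overlapped between G1 and S and between G1 and G2M. In DZ-like CD45.2+ cells the myeloid markers summed to 195 to 203 CPM in S and 214 to 259 CPM in G2M, while the other lists overlapped between these phases. Their part in the differences between phases was not tested.

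In the CD45.1+ cells of 6 mice, 47.8% of 6447 genes differed between S and G1, and 8 of the 9 members tested did. *Ccne2* ranged from 0 to 2.44 CPM in G1, with a median of 0 from 3 UMIs in all, and from 62.5 to 121 CPM in S with a median of 80.9. *Cdkn1b* ranged from 58.8 to 81.2 CPM in G1 with a median of 66.6 and from 13.7 to 27.3 CPM in S with a median of 21.1, a log2 difference of -1.73 ± 0.16 (adjusted p = 9.76e-10). The mice did not overlap between the phases for either gene, as in 26.2% of all genes. *E2f1* differed by 2.72 ± 0.23 (adjusted p = 7.15e-11) and *Ccnd3* by 0.86 ± 0.10 (adjusted p = 3.77e-08) on the log2 scale. *Rb1* passed at an adjusted p of 0.0484 with overlapping mice, and lost its call when wt mouse 1, 2 or 3 or cpm mouse 3 was left out (adjusted p 0.139, 0.119, 0.231 and 0.0724). Between G2M and G1, 50.5% of 6201 genes differed, as did 6 of 7 members tested, among them *Cdkn2c* (1.84 ± 0.22, adjusted p = 4.73e-08) and *Ccnd2* (-2.99 ± 0.47, adjusted p = 3.48e-06).

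**Figure D2:**
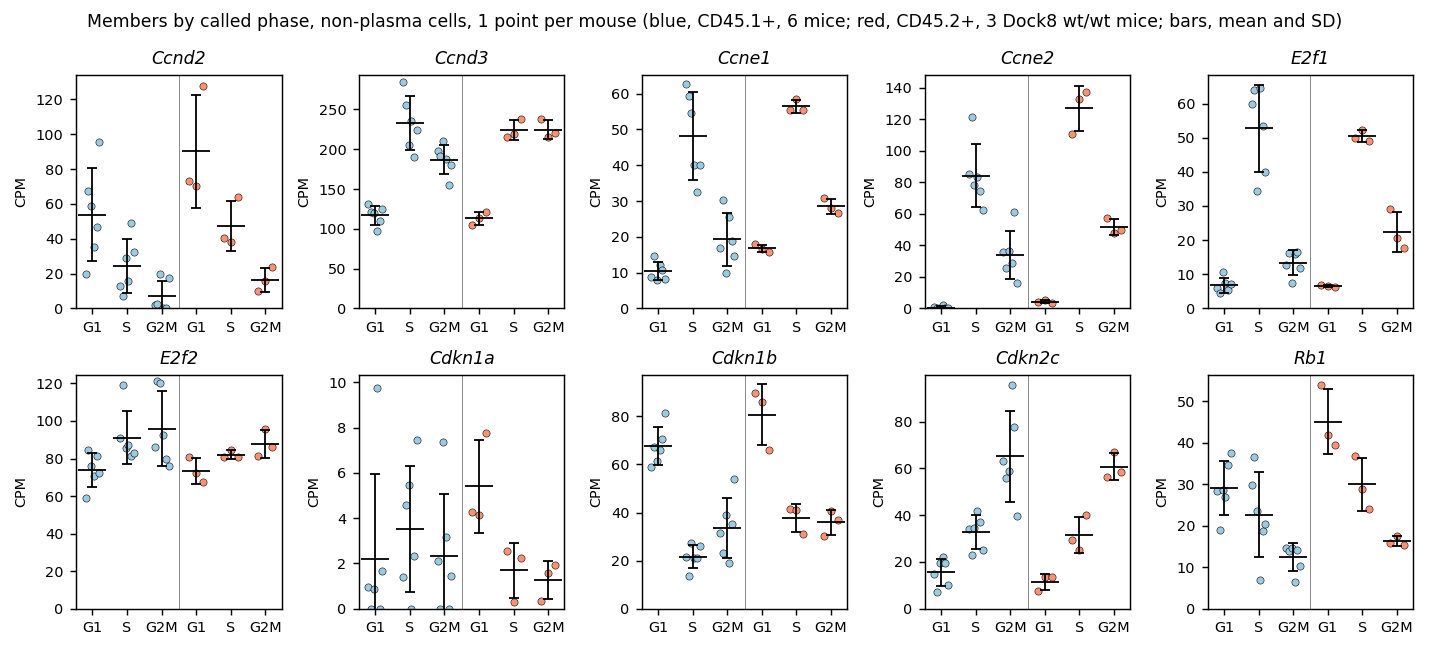
CPM of each gene in non-plasma cells called G1, S or G2M, with 1 point per mouse, blue for CD45.1+ cells (6 mice) and red for CD45.2+ cells (3 mice labelled Dock8 wt/wt), and bars for the mean and SD. *Ccne2* goes from 4.14 in G1 to 127 in S in CD45.2+ cells, *Cdkn1b* from 80.6 to 37.8, and *Cdkn2c* reaches 60.7 in G2M.

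Within the DZ-like cells, S and G2M could be compared without that tie to cluster class, a contrast chosen after the data were seen. Phase within a single DZ cluster was not tested. In CD45.2+ cells 12.7% of 8717 genes differed, and 8 of the 9 members tested. *Ccne2* was at 167, 205 and 191 CPM in S and 62.8, 52.8 and 54.8 CPM in G2M, a log2 difference of -1.73 ± 0.10 (adjusted p = 1.54e-14). *E2f1* was at 70.2, 76.5 and 63.9 CPM in S and 31.1, 21.9 and 19.1 CPM in G2M (-1.56 ± 0.15 on the log2 scale, adjusted p = 9.26e-10), and *Ccne1* at 75, 81.9 and 70.9 against 32.2, 29.6 and 28.1 CPM (-1.36 ± 0.12, adjusted p = 4.34e-10). All 3 were lower in G2M without overlap, which 29.2% of all genes had in either direction. The 2 inhibitors moved the other way: *Cdkn2c* was at 43.4, 35.1 and 50.5 CPM in S and 60.3, 72.2 and 63.1 CPM in G2M (0.59 ± 0.13, adjusted p = 0.00157), and *Cdkn1b* at 18.5, 17.1 and 18.8 against 24.8, 33.1 and 31 CPM (0.69 ± 0.17, adjusted p = 0.00604).

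The D cyclins and *Rb1* were lower in G2M than in S of the DZ-like CD45.2+ cells by smaller amounts, *Ccnd3* by a log2 difference of -0.24 ± 0.07 (adjusted p = 0.0277), *Ccnd2* by -0.90 ± 0.25 (adjusted p = 0.0127) and *Rb1* by -0.67 ± 0.20 (adjusted p = 0.0228). These calls, and those of the 2 inhibitors, were lost under several alternatives. DESeq2 gave adjusted p of 0.0787 for *Ccnd3*, 0.0702 for *Ccnd2*, 0.139 for *Rb1* and 0.0601 for *Cdkn1b*. Without wt mouse 1, *Ccnd2* was at 0.0984 and *Rb1* at 0.346, without wt mouse 2 *Ccnd3* was at 0.216, *Cdkn1b* at 0.107 and *Cdkn2c* at 0.111, and without wt mouse 3 *Ccnd3* was at 0.177 and *Cdkn1b* at 0.0627. Under the stricter cell filter *Ccnd2* differed by -0.39 (0.325), and *Ccnd3* was at 0.0594 without the filter on low counts and at 0.0682 under the 3-fold hashtag rule. *E2f2* stood at 90.2 ± 3.23 CPM in S and 89.4 ± 7.69 CPM in G2M.

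In DZ-like CD45.1+ cells of the 6 mice 18.6% of 4847 genes differed between G2M and S, and 5 of 6 members tested. *E2f1* ranged from 51.3 to 90.4 CPM in S (median 74.4) and from 8.48 to 17.3 CPM in G2M (median 15.7), a log2 difference of -2.29 ± 0.23 (adjusted p = 4.32e-12). *Ccne2* ranged from 94.9 to 144 CPM in S (median 115) and from 20.4 to 64.3 CPM in G2M (median 33.8), and *Ccne1* from 37 to 85.5 and from 11.3 to 31 CPM (log2 difference -1.70 for both). None of these 3 overlapped, as in 7.8% of all genes. *Ccnd3* was lower (-0.49 ± 0.10, adjusted p = 0.000154) and *Cdkn2c* higher (0.75 ± 0.19, adjusted p = 0.00302) in G2M, though *Cdkn2c* overlapped and lost its call with the hashtags normalized over each cell (0.166). *Cdkn1b* had 36 UMIs in S and 76 in G2M, at means of 13.3 ± 5.68 and 29.7 ± 8.13 CPM, and was under the count filter.

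**Figure D3:**
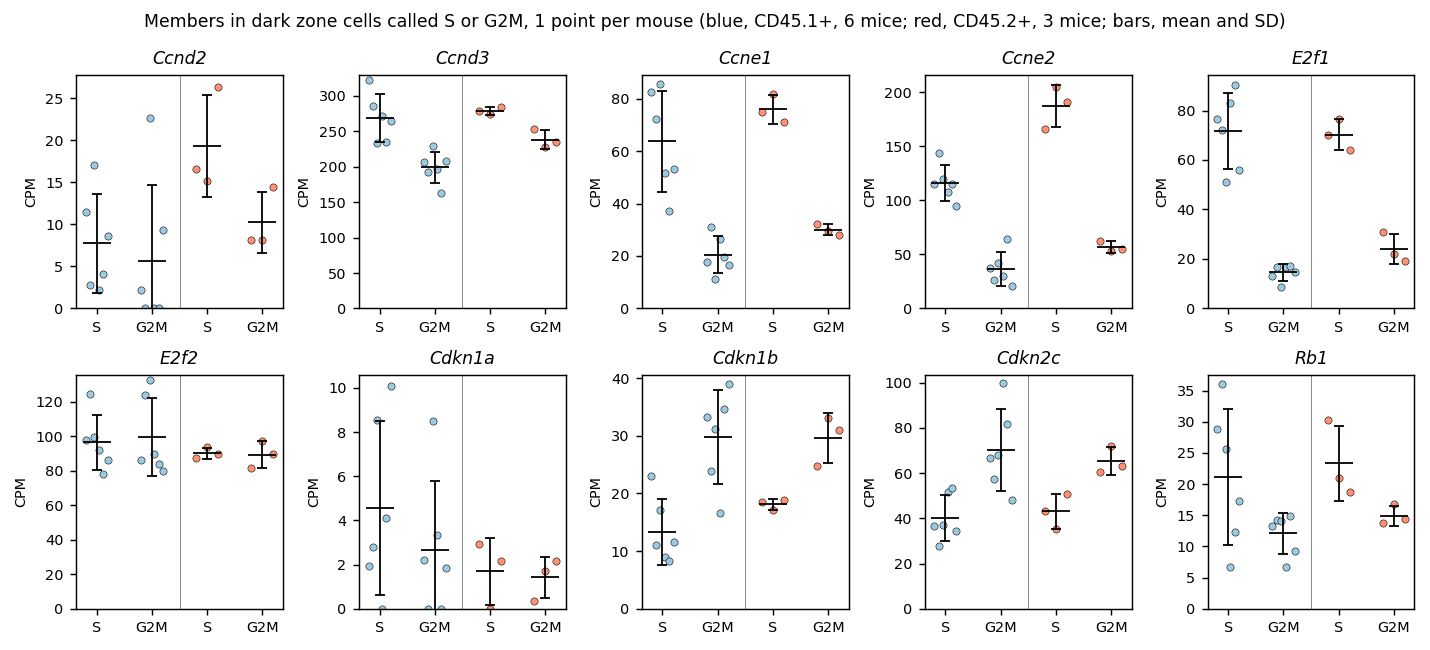
CPM of each gene in DZ-like cells called S or G2M, with 1 point per mouse, blue for CD45.1+ (6 mice) and red for CD45.2+ cells (3 mice labelled Dock8 wt/wt), and bars for the mean and SD. *Ccne1*, *Ccne2* and *E2f1* are lower and *Cdkn2c* is higher in G2M in both sorts, while *E2f2* stays near 90 in CD45.2+ cells.

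The 2 sorts were compared within the 3 mice labelled *Dock8* wt/wt, where both hold *Dock8* wt/wt cells and the CD45.2+ cells also carry BCL2.Tg. Over all non-plasma cells 3.36% of 10470 genes differed, and 2 of the 10 members, the E cyclins. *Ccne2* was at 34.3, 32.1 and 21.6 CPM in CD45.1+ and 43.5, 46.3 and 52.6 CPM in CD45.2+ cells (log2 difference 0.75 ± 0.15, adjusted p = 0.0155). *Ccne1* was at 23.9, 18.3 and 18.9 CPM in CD45.1+ and 30.5, 29.9 and 29.5 CPM in CD45.2+ cells (0.57 ± 0.13 on the log2 scale, adjusted p = 0.03). *Ccne1*, *Ccne2* and *Rb1* were above the CD45.1+ range in every CD45.2+ sample, as were 12.9% of all genes tested, and *Rb1* did not pass the test (0.48 ± 0.18, adjusted p = 0.17). The call of *Ccne1* was lost when wt mouse 1, 2 or 3 was left out (adjusted p 0.179, 0.242 and 0.0607), and that of *Ccne2* without wt mouse 1 (0.0514) or 2 (0.121) and with the hashtags normalized over each cell (0.0825). In cells called G1 alone neither passed, with log2 differences of 0.74 for *Ccne1* (adjusted p = 0.0813) and 2.79 for *Ccne2* (adjusted p = 0.0726). The sorts also held the classes in other shares. Early or activated cells were 31.8, 21.7 and 43.6% of the CD45.1+ and 64.3, 47.6 and 52.4% of the CD45.2+ non-plasma cells, LZ-like cells 35.4, 54.5 and 27.2% and 13.2, 30.1 and 14.4%, and DZ-like cells 32.8, 23.8 and 29.3% and 22.5, 22.3 and 33.1%.

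In DZ-like cells, 3.83% of 9191 genes differed between the sorts, and 2 of the 9 members tested. *Ccne2* was at 73.5, 78.9 and 60.5 CPM in CD45.1+ and 107, 123 and 109 CPM in CD45.2+ cells, a log2 difference of 0.72 ± 0.12 (adjusted p = 0.000347). The largest share of the DZ-like cells was DZ1 in CD45.1+ (53.7%, DZ2 32.6%) and DZ2 in CD45.2+ cells (48.3%, DZ1 33.9%). Within DZ1 alone the difference of *Ccne2* was 1.18 (adjusted p = 6.87e-06), and within DZ2 alone 0.25 (adjusted p = 0.543). *Ccnd2* was at 1.27, 1.46 and 9.42 CPM in CD45.1+ and 11.7, 12.2 and 19 CPM in CD45.2+ DZ-like cells (1.51 ± 0.42, adjusted p = 0.0398), from 14 and 199 UMIs. Its call was lost without wt mouse 1 (1.27, adjusted p = 0.249) or 2 (1.31, 0.188), under the 3-fold hashtag rule (1.51, 0.0556) and within DZ1 (1.38, 0.163) or DZ2 (1.41, 0.249) alone. *Ccne1* missed the threshold (0.54 ± 0.16, adjusted p = 0.059) and passed with the mouse as a block (0.52, adjusted p = 0.0353), a fit that called 575 genes against 352. By edgeR, *Ccne1* also passed without the count filter (adjusted p = 0.0286) and without the top Scrublet scores (0.0233). The ranges of 5 members lay above CD45.1+ (*Ccnd2*, *Ccnd3*, *Ccne1*, *Ccne2* and *Rb1*), as did 10.4% of all genes.

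In LZ-like cells, 5.72% of 7236 genes differed, and 2 of the 6 members tested. *Rb1* was at 11.2, 14.5 and 8.41 CPM in CD45.1+ and 43.7, 24.6 and 23.3 CPM in CD45.2+ cells (log2 difference 1.37 ± 0.35, adjusted p = 0.0144), without overlap. *Ccnd2* was at 31.2, 18.9 and 104 CPM and at 137, 88.7 and 189 CPM (1.33 ± 0.31, adjusted p = 0.00764), with the CD45.1+ cells of wt mouse 3 above the lowest CD45.2+ sample. These cells were a different mix: LZ2 made up 91.1% of the CD45.1+ and 53.1% of the CD45.2+ LZ-like cells, LZ1, where *Ccnd2* was high, 7.44% and 27.0%, and LZtoPrePC_Memory, where the mean of *Rb1* was highest, 1.45% and 19.96%. Within LZ2 alone *Ccnd2* differed by 0.96 (adjusted p = 0.207), and *Rb1* had too few counts to be tested. *Ccnd2* lost its call without wt mouse 1 (0.314) and by DESeq2 (0.477), and *Rb1* without wt mouse 1 (0.272) or 3 (0.0768), by DESeq2 (0.0677), under the 3-fold hashtag rule (0.0604), under the stricter cell filter (0.104) and in G1 cells alone (0.0590). *Cdkn1b* was at 46.9, 27.6 and 32.2 CPM in CD45.1+ and 77.1, 58.7 and 35.8 CPM in CD45.2+ cells (0.75 ± 0.25, adjusted p = 0.0788), and passed with the mouse as a block (0.70, adjusted p = 0.0107), where 783 genes were called against 414. By edgeR, *Cdkn1b* also passed without the count filter (adjusted p = 0.0196), with the hashtags normalized over each cell (0.0231) and without wt mouse 3 (0.0491).

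In early or activated cells, 2.09% of 9157 genes differed between the sorts (401 genes with the mouse as a block, against 191), and *Ccne2* alone of the 10 members. The mix of clusters differed here too, with 56.1% of the CD45.1+ and 46.2% of the CD45.2+ cells in Activated_Memory, 20.97% and 40.8% in EarlyGC1 and 19.0% and 10.9% in EarlyGC2. No UMI of *Ccne2* was found among 2531787 UMIs of the CD45.1+ cells, which allows up to 1.18 CPM, while the CD45.2+ cells had 64 UMIs, at 3.53, 4.08 and 4.38 CPM. With 3 counts in the whole group as the floor that is at least 3.32-fold (adjusted p = 0.0409). The T cell-like cells of the CD45.2+ library, 56 cells with 2 UMIs of the gene, had 9.41 ± 9.44 CPM. With so few UMIs they cannot show whether the early or activated cells lay above another cell type. RNA free in the library and RNA of the cells cannot be told apart at this level, and the difference is given as one between 2 libraries. The call was lost without wt mouse 1, 2 or 3 (adjusted p 0.215, 0.175 and 0.207) and with the hashtags normalized over each cell (0.0760). *Cdkn1b* was at 91.4, 127 and 101 CPM in CD45.1+ and 91.7, 102 and 74.9 CPM in CD45.2+ cells, and did not pass the test (-0.33 ± 0.13, adjusted p = 0.214). The difference between the sorts was itself compared between LZ-like and early or activated cells, a contrast chosen after the data were seen, and 1.8% of 8091 genes differed. *Cdkn1b* (1.09 ± 0.30, adjusted p = 0.0625) and *Rb1* (1.46 ± 0.41, adjusted p = 0.0686) missed the threshold. *Cdkn1b* passed with the hashtags normalized over each cell, under the 3-fold hashtag rule and without the top Scrublet scores (adjusted p from 0.0269 to 0.0465), and *Rb1* with the first (0.00159) and the last (0.0324) of these. *Ccnd2* (1.49, adjusted p = 0.198) passed without wt mouse 3 (2.67, 4.01e-04). Between DZ-like and early or activated cells 0.791% of 9866 genes differed in this way, and no member. Here *Rb1* (0.86, adjusted p = 0.238) passed with the hashtags normalized over each cell (1.30, 0.0281) and *Ccnd2* (1.77, adjusted p = 0.277) without wt mouse 3 (3.69, 0.00211).

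Markers listed for other cells moved with the sort. Over non-plasma cells the 8 plasma cell markers of a fixed list summed to 1295 to 1614 CPM in CD45.1+ and 1910 to 2160 CPM in CD45.2+ cells, the 6 myeloid markers to 325 to 378 and 285 to 305 CPM, and the 4 erythroid genes to 54.3 to 60.7 and 27.5 to 37.5 CPM. The 8 T cell markers summed to 5.54 to 9.31 and 6.81 to 19.6 CPM, with 1 of them at 0 in CD45.1+ cells. Plasma cell markers were higher in every CD45.2+ sample within each class as well, at 1554 to 1775 and 2171 to 2538 CPM in DZ-like, 1381 to 1626 and 1749 to 2215 CPM in LZ-like and 1054 to 1340 and 1670 to 1905 CPM in early or activated cells. Myeloid markers were at 213 to 250 and 206 to 236 CPM in DZ-like, 157 to 193 and 207 to 217 CPM in LZ-like and 442 to 965 and 356 to 403 CPM in early or activated cells. Erythroid genes were at 90.6 to 117 and 53.6 to 63.1 CPM in DZ-like, 47.9 to 84.1 and 29.99 to 60.5 CPM in LZ-like and 0 to 6.94 and 7.60 to 8.53 CPM in early or activated cells. T cell markers stayed at or under 35.0 CPM in every class and sort, with 3, 4 and 3 of the 8 at 0 in the CD45.1+ DZ-like, LZ-like and early or activated cells. The part of these markers in the differences between the sorts was not tested.

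**Figure D4:**
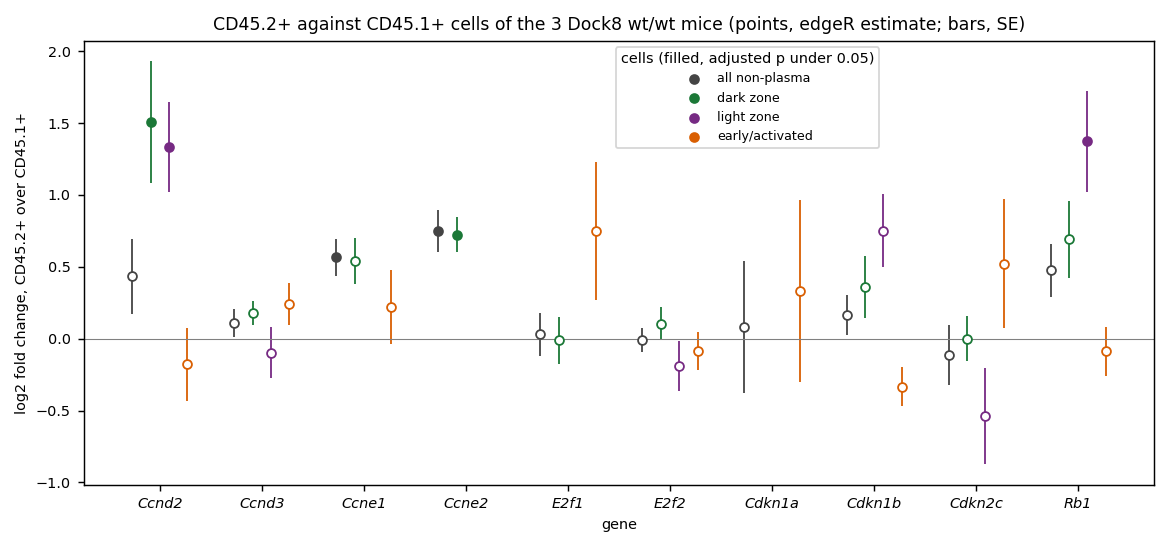
log2 fold change of each gene, CD45.2+ over CD45.1+ cells in the 3 wt/wt mice, as points with SE bars, by cell class (non-plasma, DZ-like, LZ-like, early or activated), filled where the adjusted p is under 0.05. *Ccne2* is filled in non-plasma and DZ-like cells, *Ccnd2* in DZ-like (1.51) and LZ-like cells (1.33) and *Rb1* in LZ-like cells (1.37), and *Ccne2* in early or activated cells is not drawn because its CD45.1+ count was 0.

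The question of the study was put to the CD45.2+ cells, *Dock8* cpm/cpm against *Dock8* wt/wt, with 181 and 4778 non-plasma cells. No member passed the test, with 0.137% of 10236 genes called by edgeR (14 genes, 77 by DESeq2, 797 at an unadjusted p under 0.05), and none passed under either other hashtag rule. *Cdkn1b* was at 63.8, 65.5 and 48.1 CPM under the wt/wt label and 85.4, 85 and 94.2 CPM under cpm/cpm, a log2 difference of 0.48 ± 0.17 (adjusted p = 0.407). *Ccnd3* was at 164, 162 and 182 CPM and at 207, 184 and 203 CPM (0.12 ± 0.12, adjusted p = 0.876). In these 2 members the summed levels of the 3 cpm/cpm mice lay above those of the 3 wt/wt mice, as in 12.8% of all genes. *Ccnd2* was at 49.7, 51 and 79.1 CPM in the wt/wt and 179, 54.4 and 52.7 CPM in the cpm/cpm cells, where cpm mouse 1 stood alone, and its log2 difference of 0.48 ± 0.30 became -0.29 without that mouse. LZ-like cells were 42.9% of the non-plasma cells of that mouse, 21.6 and 20.5% in the other 2 and 13.2, 30.1 and 14.4% in the wt/wt mice, and the part of this mix was not tested. The other 7 members overlapped, with log2 differences from -0.61 (*Cdkn1a*) to 0.28 (*E2f1*) and adjusted p from 0.689 to 0.947.

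At this depth the test had limited reach. With 3 mice a group and 294047 UMIs in the smallest, it recovered 52% of simulated 2-fold and 84% of 4-fold changes. These rates are not those of the members at their own counts, and the reach for each member was not tested. Some called genes differed by less than 2-fold, such as *Fau* (log2 difference -0.36 ± 0.07, SE) and *Rplp0* (-0.38 ± 0.08), and others by more. A missing call in a member thus does not show that it was unchanged. The simulation took every cell as rightly labelled. The summed plasma cell markers were at 1910 to 2160 CPM in the wt/wt and 1816 to 2014 CPM in the cpm/cpm cells, and 4 of the 8 T cell markers were at 0 in the latter.

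The CD45.1+ cells, *Dock8* wt/wt without BCL2.Tg in both groups, were compared by the genotype of the cells that shared their host. Among 8672 genes edgeR called none, which is 0% (606 at an unadjusted p under 0.05, none by DESeq2), and 9 members were tested. *Ccnd2* was at 23.9, 36 and 61.3 CPM beside *Dock8* wt/wt and 13.4, 31.7 and 42.7 CPM beside *Dock8* cpm/cpm cells (-0.63 ± 0.31, adjusted p = 0.717), and it passed when no filter on low counts was applied (-0.63, adjusted p = 0.0234). *Cdkn1b* was at 43.1, 49.8 and 59.9 against 41.6, 40 and 48.4 CPM (-0.31 ± 0.15, adjusted p = 0.715). The ranges overlapped in all 10 members, where 11.4% of all genes did not overlap. The genotype difference of *Cdkn1b* minus its bystander difference was 0.79 ± 0.24 on the log2 scale, in a contrast chosen after the data were seen, and did not pass (adjusted p = 0.841, 0 of 9143 genes called by edgeR).

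**Figure D5:**
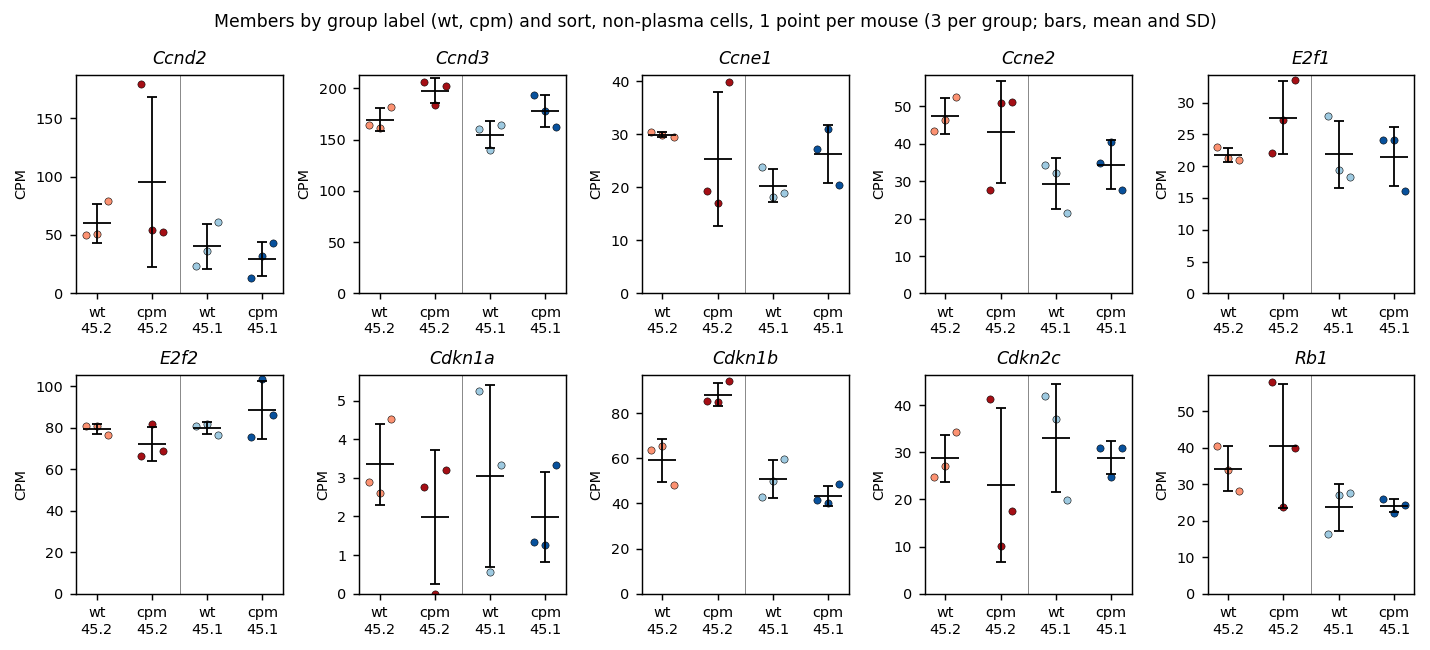
CPM of each gene in non-plasma cells by group label (wt, cpm) and sort, with 1 point per mouse (3 per group) and bars for the mean and SD. *Cdkn1b* lies at 85.0 to 94.2 in the CD45.2+ cells labelled cpm and 48.1 to 65.5 in those labelled wt, and one cpm mouse sets the high mean of *Ccnd2*.

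Of 29 further genes of the pathway (CDKs and activators, other pocket proteins and E2Fs, other inhibitors, turnover and upstream regulators), none differed in the genotype contrast (26 tested), the bystander contrast (24) or between the sorts in non-plasma (25), LZ-like (18) or early or activated cells (22). In DZ-like cells 1 of 25 was higher in CD45.2+ cells, *Ccna2*, the cyclin of S phase and G2, at 166 against 133 CPM (0.36 ± 0.10, adjusted p = 0.0303). In CD45.2+ cells 17 of 25 were higher and 3 lower in S than in G1, where 52.1% of all genes differed, and 17 higher and 2 lower in G2M, where 60.5% did. The largest differences in S were those of *E2f7* (4.19 ± 0.26) and *E2f8* (3.93 ± 0.16), the repressor E2Fs, *Cks1b* (3.05 ± 0.11), a CDK-binding subunit, and *Ccna2* (2.84 ± 0.13), and *Rbl2*, *Cdkn2d* and *Foxo3* were lower.

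Within DZ-like CD45.2+ cells, 4 of the 25 pathway genes tested were higher in G2M than in S and 9 lower, where 12.7% of all genes differed. *Cdkn2d*, the INK4 inhibitor p19, was at 49 CPM in S and 116 CPM in G2M (1.22 ± 0.12, adjusted p = 1.04e-09), and *Ccna2* at 97.4 and 221 CPM (1.17 ± 0.09, adjusted p = 3.18e-12). *E2f3* was at 80.3 and 40 CPM (-1.02 ± 0.12, adjusted p = 1.8e-07) and *Cdc25a*, the phosphatase that activates CDK2, at 59 and 30.8 CPM (-0.94 ± 0.14, adjusted p = 4.44e-06). In CD45.1+ cells 3 of 18 were higher and 5 lower, where 18.6% of all genes differed, with *Cdkn2d* at 1.29 ± 0.16 and *Cdc25a* at -1.06 ± 0.22 on the log2 scale. *Cdkn2c* and *Cdkn2d*, both of the INK4 family, were higher in G2M than in S of DZ-like cells in both sorts.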

How the data were processed

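Cells came from 4 libraries (2 mRNA, 2 hashtag). Per the labels and methods, the authors aligned reads to mm10 with Cell Ranger 5.0.1 and deposited whole-number UMI counts per gene and barcode without normalization. Strand use in counting was not given in the sources used here. The group and mouse of each hashtag came from the authors' hashtag table. Counts of hashtags were CLR-normalized and assigned by HTODemux (quantile 0.99, Seurat 5.3.0, R 4.3.3). Singlets with under 10% mitochondrial counts and 100 to 5500 genes were kept. SCTransform 0.4.2 (3000 variable genes), 30 principal components and Louvain clustering at resolution 0.9 followed, without the members or sex-linked genes. Clusters took the name of the list sharing most of their 50 leading genes, with at least 3 shared.

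Counts summed per mouse (at least 10 cells) were tested by edgeR 4.0.16 (quasi-likelihood, TMM, filterByExpr, Benjamini-Hochberg, 0.05), tested on simulated data, which recovered 85% of 2-fold changes between sorts and 88% between phases. DESeq2 1.42.0 was the second tool. The adjustment covered all genes passing the filter. Sex-linked genes, and in phase contrasts the phase genes, were left out of counts of calls. Scrublet (scanpy 1.11.5) called 4 of 6488 and 13 of 3204 cells and had not worked, so the top 6% of scores were removed as an alternative. SEs are the log2 fold change over the root of F. Gene positions used GENCODE M21. Intervals and floors cover counting error only. Recipients are separate mice, and the labels do not give whether donor cells were pooled. Sorts and phases of 1 mouse share that animal, which pairs them. The correlation of their deviations ran from -0.05 to 0.31.

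The members and lists were chosen with earlier results of these data known. Named genes are the members, up to 4 called pathway genes per comparison with the largest change, *Dock8*, *Xist*, *Ddx3y* and the 2 genes most like each member. The contrasts of G2M with S in DZ-like cells, the differences of differences and the single-cluster settings were chosen after the data were seen. Other alternatives were RLE factors, no count filter, 2 other hashtag rules, a stricter cell filter, resolution 1.2, members kept in clustering, unthinned phases, G1 cells only, LZ- and DZ-like cells only, all 4 groups in 1 fit, a mouse block and each mouse left out.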

Additional observations from a re-analysis of the deposited data

Results flagged for a closer look

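Among 50 sets of 6 mice tested, 2 had a mouse whose gap to the nearest of the others was large for the range of the set, where chance gives about 1 in 20. *E2f2* in CD45.1+ cells called S was at 119 CPM in cpm mouse 2 and 81.4 to 91.1 CPM in the other 5, with a gap of 0.743 of the range. *Cdkn1a* in CD45.1+ cells called G1 was at 9.77 CPM in wt mouse 1 and 0 to 1.66 CPM in the others, with a gap of 0.830 of the range. *E2f2* was not called between phases in the CD45.1+ cells, and *Cdkn1a* was under the count filter there and not tested.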

How the results depend on the processing

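The genotype count of 14 became 77 by DESeq2, 133 without the count filter, 6 under the 3-fold hashtag rule, 37 in G1 cells and 1 in LZ- and DZ-like cells, and the bystander count of 0 became 56 without the filter. Between sorts, 352 in non-plasma cells became 819 without the filter and 172 under the 3-fold rule, 352 in DZ-like cells 229 by DESeq2, 575 with the mouse as a block and 174 in DZ1 alone, 414 in LZ-like cells 213 by DESeq2, 241 under the stricter cell filter, 783 with the block and 98 in LZ2 alone, and 191 in early or activated cells 349 without the filter, 344 under the 3-fold rule and 401 with the block. With hashtags normalized over each cell, CD45.1+ counts were 1217 (S against G1), 1734 (G2M against G1) and 326 (G2M against S in DZ-like cells). Over LZ-like and early or activated cells alone they were 95 in CD45.1+ S and 7 and 202 in CD45.2+ S and G2M, and DESeq2 gave 532 for G2M against S in DZ-like CD45.2+ cells. The block changed no other call of a member than those of *Ccne1* and *Cdkn1b* given above.

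Leaving out 1 mouse gave 2 to 46 calls for genotype and 0 to 9 for bystander. Between sorts it gave 37 to 971 in non-plasma, 135 to 232 in DZ-like, 82 to 403 in LZ-like and 31 to 291 in early or activated cells. It gave 2758 to 2939 (CD45.1+) and 3881 to 4730 (CD45.2+) for S, 2823 to 2920 and 4747 to 5448 for G2M, and 716 to 795 and 525 to 742 for G2M against S in DZ-like cells. The genotype count was 45 or 46 without wt mouse 2 or 3 and 6, 2 or 5 without cpm mouse 1, 2 or 3, and the bystander count 9 without wt mouse 2. Between sorts the counts without wt mouse 1, 2 and 3 were 37, 43 and 971 in non-plasma, 135, 177 and 232 in DZ-like, 82, 240 and 403 in LZ-like and 31, 52 and 291 in early or activated cells, and G2M against S in DZ-like CD45.2+ cells gave 525 and 555 without wt mouse 2 and 3.

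Of the log2 differences of members under other settings, 1085 kept direction and side of the threshold, 45 lost and 11 gained a call and 47 turned, none of the 47 called under that setting. For genotype these were *Rb1* (-0.033, hashtags over each cell, and -0.047, G1 cells), *Ccne2* and *Cdkn1a* (0.024 and 0.49, 3-fold rule), and *Ccnd3* and *E2f1* (-0.30 and -0.18, G1 cells). For bystander they were *E2f2* (-0.11, hashtags over each cell, and -0.083, G1 cells), *Ccne1* (-0.042, G1 cells), and *Ccne2*, *Cdkn1b* and *Rb1* in LZ- and DZ-like cells (-0.0030, 0.14 and 0.58). Between sorts in non-plasma cells *E2f2* was 0.011 without the filter and 0.024 without top Scrublet scores, *E2f1* -0.030 without those scores and -0.053 in G1 cells, and *Ccnd3* -0.011 in G1 cells. In DZ-like cells *E2f1* was 0.0095 without the filter, 0.17 in DZ1 and 0.013 in DZ2, and *Cdkn2c* 0.020 without the filter, 0.016 without top Scrublet scores, 0.047 under the 3-fold rule, 0.0015 at resolution 1.2 and 0.10 in DZ1. *Ccnd3* was 0.14 in LZ2. In early or activated cells *Cdkn1a* was -0.24 with hashtags over each cell, and *Ccnd2* and *Ccnd3* 0.29 and -0.047 in Activated_Memory. In LZ-like and early or activated cells alone, S against G1 gave *Ccnd2* 0.034 and *E2f2* -0.030 (CD45.1+) and *Ccnd2* 0.16, *E2f2* -0.18 and *Cdkn2c* -0.55 (CD45.2+), and G2M against G1 *Ccnd3* -0.31, *Ccne1* -0.23, *E2f2* -0.060 and *Cdkn1b* 0.20 (CD45.2+). *E2f2* in S of CD45.2+ cells was -0.017 under the stricter cell filter, and for G2M against S in DZ-like cells 0.10, 0.066, 0.074 and 0.088 (CD45.1+) and 0.045, 0.092, 0.11 and 0.12 (CD45.2+) with hashtags over each cell, the 3-fold rule, the stricter filter and unthinned phases. The causes were not tested.

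With 1 mouse left out, these also turned: for genotype *Ccnd2* (-0.29 to 0.89) and *Rb1* (-0.11 to 0.31), for bystander *Cdkn2c* (-0.45 to 0.079), *E2f1* (-0.16 to 0.13), *E2f2* (-0.016 to 0.22) and *Rb1* (-0.22 to 0.14), between sorts in DZ-like cells *Cdkn2c* (-0.33 to 0.17) and *E2f1* (-0.087 to 0.086), in early or activated cells *Ccnd2* (-0.52 to 0.15), *Ccne1* (-0.23 to 0.51), *Cdkn1a* (-0.82 to 1.93), *Cdkn2c* (-0.048 to 1.13), *E2f2* (-0.22 to 0.034) and *Rb1* (-0.28 to 0.043), in non-plasma cells *Cdkn1a* (-0.14 to 0.55), *Cdkn2c* (-0.60 to 0.18), *E2f1* (-0.081 to 0.15) and *E2f2* (-0.027 to 0.0021), and *E2f2* in G2M against S of DZ-like CD45.1+ cells (-0.093 to 0.034). Without wt mouse 3, 4 members passed between sorts in non-plasma cells that did not with it: *Ccnd2* (0.75, adjusted p = 0.00275), *Cdkn1b* (0.48, 0.0135), *Cdkn2c* (-0.60, 0.0107) and *Rb1* (0.78, 0.0154), by edgeR.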
